A study of Mus musculus with 6 samples.

Results

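The ATF4 and CHOP genes of the integrated stress response were followed in inguinal white adipose tissue, a subcutaneous fat depot at the hind limb, of old mice. The genes were chosen by name: Atf4, Ddit3 (which encodes CHOP), Trib3, Asns, Chac1, Sesn2, Psat1, Phgdh, Mthfd2 and Ppp1r15a, 10 of the 54532 genes in the table. All 10 passed the low-count filter, as did 15591 genes in all. RNA was sequenced from 3 libraries of estrogen-treated mice and 3 libraries of vehicle-treated mice, and both groups had spent 7 days in the cold, a stimulus that recruits heat-producing beige adipocytes into this depot. The labels give neither the sex, strain and exact age of the mice nor the form, dose, route and duration of the estrogen, and no label says whether the libraries stem from different animals, so p-values measure only the spread between these libraries, which went beyond counting noise and may in part be technical.

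The integrated stress response converts several kinds of stress into one signal. Kinases that sense unfolded protein in the endoplasmic reticulum, amino acid shortage, haem or mitochondrial faults, and viral RNA phosphorylate the translation factor eIF2alpha, which slows protein synthesis as a whole but favours translation of the ATF4 messenger RNA. ATF4, a basic leucine zipper transcription factor, then switches on genes for amino acid synthesis, amino acid import and redox balance, and under sustained stress it acts together with CHOP, a related factor linked to cell death. Because ATF4 is controlled mainly at translation, its RNA level does not report its protein level, and the target genes are the usual transcriptional readout. In brown and beige fat, mitochondrial stress is a known trigger of this response.

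ATF4 binds C/EBP-ATF response elements, and the stretches that hold the core of such an element near the start of a member are shown so that the letters of the match can be read in place. The core TGATGNAA, searched on both strands from 250 bases before to 50 bases after each gene's start (RefSeq, GRCm38.p6, the build of mm10), was found for 3 of the 10 members, Asns, Chac1 and Trib3, against 4.51% of all 27025 gene symbols with a promoter in that table. The cyclic AMP response element TGACGTCA, a palindrome that reads the same on both strands, was searched after the data were seen and was found for Ppp1r15a, against 2.03% of symbols. The endoplasmic reticulum stress element, CCAAT and CCACG with 9 bases of any kind between them, was found for 0 of the 10 members and for 0.137% of symbols. Capitals mark the motif, each line reads 5′ to 3′ on the strand of its gene, and the gene's first base is position 1.
Asns, chr6:7693210-7693269, minus strand, positions -60 to -1: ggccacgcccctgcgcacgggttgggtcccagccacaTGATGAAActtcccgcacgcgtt
Chac1, chr2:119351023-119351082, plus strand, positions -219 to -160, core on the opposite strand: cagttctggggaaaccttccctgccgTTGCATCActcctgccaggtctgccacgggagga
Trib3, chr2:152344028-152344057, minus strand, positions 4 to 33, core on the opposite strand: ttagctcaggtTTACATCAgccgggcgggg
Ppp1r15a, chr7:45526269-45526328, minus strand, positions -60 to -1: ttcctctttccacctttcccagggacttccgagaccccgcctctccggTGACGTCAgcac

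These matches describe letters in a short window and not binding. Among the other integrated stress response genes described further on, 16 of the 63 with a promoter in the table held the TGATGNAA core, among them Atf3, Nupr1, Pycr1, Slc7a11, Slc1a4, Herpud1 and Fgf21.

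Total counts ran from 16046601 to 19263623 in estrogen libraries and from 19014779 to 20736771 in vehicle libraries. Libraries stood apart in their cell type markers. Estrogen replicate 1 had a summed level of 6776 CPM (counts scaled to a common library size, with TMM factors) over 6 skeletal muscle markers, against 1.60 to 56.4 CPM in the other 5 libraries. The 6 B cell markers summed to 150, 6.02 and 98.8 CPM in estrogen replicates 1, 2 and 3, against 3.96 to 6.63 CPM in vehicle libraries. Estrogen replicate 3 had the highest summed adipocyte markers (25872 CPM over 8 genes, against 12020 to 17510 CPM in the other libraries) and the lowest summed fibroblast and macrophage markers. Of the 8 adipocyte markers, Lep went the other way in estrogen replicate 3, at 28.6 CPM against 134 to 214 CPM in the other libraries. That library was also lowest in summed thermogenic adipocyte markers, at 348 CPM over 5 genes against 677 to 2888 CPM in the other libraries. Ucp1, the uncoupling protein of beige and brown fat, was at 10.2 CPM there against 332 to 1752 CPM. Cox8b was lowest there too, whereas Cidea, Dio2 and Elovl3 were not. Vehicle replicate 1 had the highest neutrophil markers, at 161 CPM over 6 genes against 25.7 to 35.2 CPM in the other libraries. Over 7 genes each, fibroblast and progenitor markers summed to 1164 to 8216 CPM in estrogen libraries and 11723 to 33324 CPM in vehicle libraries, and macrophage markers to 459 to 1469 CPM in estrogen libraries and 1967 to 2764 CPM in vehicle libraries. All 8 adipocyte markers passed the low-count filter, while mammary and other epithelial markers summed to 0.487 to 1.60 CPM, with Krt14, Krt5 and Wap at 0 counts in every library. In whole tissue, fewer cells of a type and less RNA per cell cannot be told apart.

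No member changed past the threshold with estrogen, and the 10 genes did not lie to one side. By edgeR's quasi-likelihood test with adjustment over all tested genes, 0 of 10 members passed an adjusted p of 0.05, as did 0% of all 15591 genes, and DESeq2 called 0 members, against 6.09% of genes (2.75% higher and 3.34% lower). At an unadjusted p under 0.05 there was 1 member, Asns, against 20.4% of all genes. The log2 fold changes, estrogen over vehicle, were positive for 5 members and negative for 5, against 50.3% and 49.7% of all genes, with a median of -0.04 beside 0.0025 for all tested genes, and ran from -0.53 for Mthfd2 to 1.14 for Chac1. All 3 estrogen libraries lay above all 3 vehicle libraries for 2 members (Asns and Chac1), against 12.8% of all genes, and below them for 0 members, against 14.7%.

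**Figure D1:**
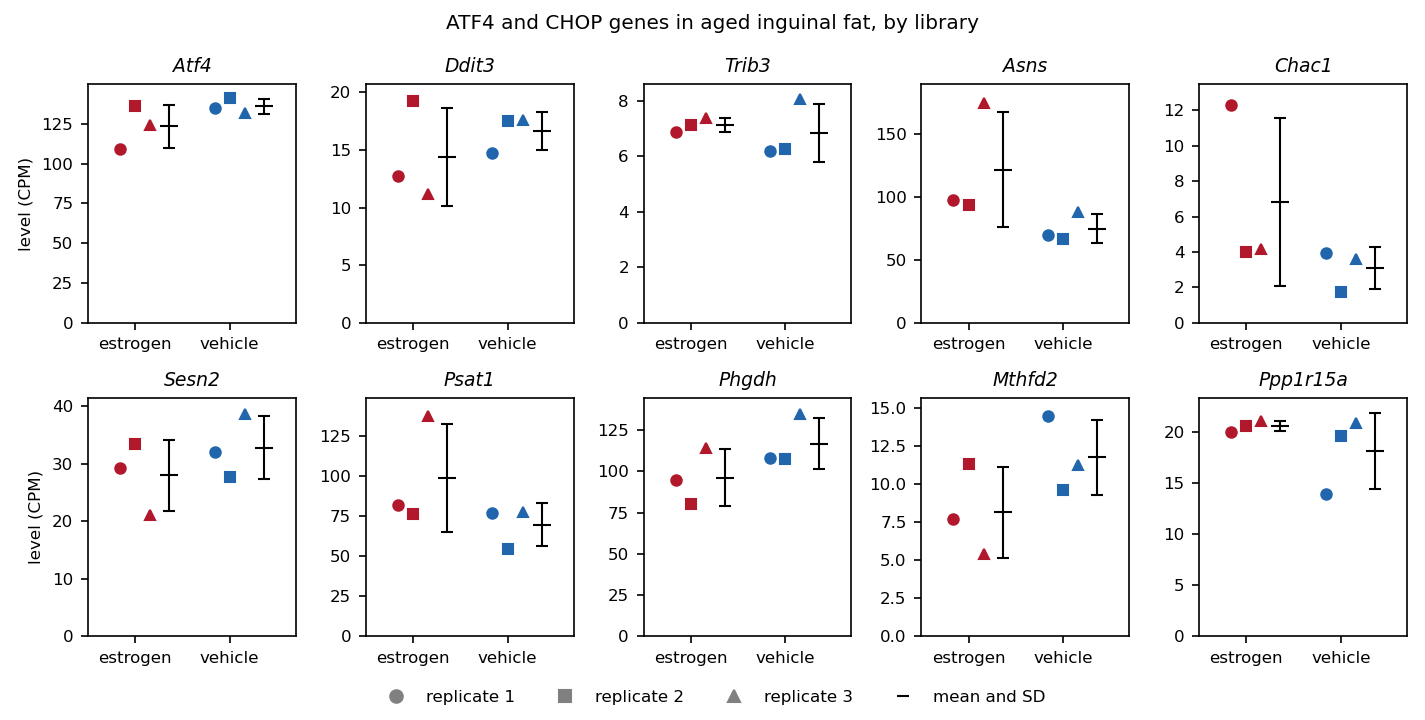
Level of each of the 10 genes in TMM-scaled CPM (linear axes from 0), with 1 point per library, estrogen left of vehicle, and the mean and SD of the 3 libraries beside the points. Asns and Chac1 are the members whose groups do not overlap, with estrogen replicate 3 highest for Asns at 175 CPM and estrogen replicate 1 highest for Chac1 at 12.3 CPM.

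Both transcription factors of the group overlapped between estrogen and vehicle libraries. Atf4 (ENSMUSG00000042406, chromosome 15, 80255184 to 80257541, mm10) was at 109, 136 and 124 CPM in estrogen replicates 1, 2 and 3, against 135, 141 and 132 CPM in vehicle replicates 1, 2 and 3. Estrogen replicate 1 was the lowest library and vehicle replicate 2 the highest. The log2 fold change was -0.14 ± 0.13 (SE), with a 95% interval of -0.44 to 0.16 and an adjusted p of 0.547, and it ranged from -0.22 without estrogen replicate 2 to -0.07 without estrogen replicate 1. Ddit3 (ENSMUSG00000025408, chromosome 10, 127290774 to 127296288) was at 12.8, 19.2 and 11.2 CPM in estrogen replicates 1 to 3, against 14.8, 17.6 and 17.6 CPM in vehicle replicates 1 to 3. Estrogen replicate 2 was the highest of the 6 libraries and the other estrogen libraries the lowest. Its log2 fold change was -0.21 ± 0.22 (95% interval -0.73 to 0.31, adjusted p = 0.604), and ranged from -0.47 without estrogen replicate 2 to -0.06 without estrogen replicate 3. Another row with the symbol Ddit3 (ENSMUSG00000116429), nested in the same gene and 105 bases long, held 0 counts in all libraries, and 68 bases at the other end of Ddit3 are shared with Mars on the opposite strand, so the Ddit3 count may lack or gain reads there.

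Trib3 and Ppp1r15a, regulators that limit the response, and Sesn2 also overlapped between the groups. Trib3, a pseudokinase induced by ATF4 and CHOP that restrains their activity, was at 6.89, 7.14 and 7.38 CPM in estrogen replicates 1 to 3, against 6.20, 6.27 and 8.07 CPM in vehicle replicates 1 to 3. All 3 estrogen values lay inside the vehicle range. The log2 fold change of 0.06 ± 0.20 (95% interval -0.40 to 0.52, adjusted p = 0.886) turned to -0.0089 without vehicle replicate 1 and to -0.00069 without vehicle replicate 2. Ppp1r15a encodes GADD34, which brings a phosphatase to eIF2alpha and so restores translation. It was at 20.1, 20.6 and 21.1 CPM in estrogen libraries, against 13.9, 19.6 and 20.9 CPM in vehicle libraries, where vehicle replicate 1 alone was low. Its log2 fold change was 0.18 ± 0.17 (adjusted p = 0.561), and ranged from 0.02 without vehicle replicate 1 to 0.29 without vehicle replicate 3. Sesn2, a leucine sensor that holds back mTORC1 signalling, was at 29.3, 33.4 and 21.2 CPM with estrogen and 32.1, 27.7 and 38.6 CPM with vehicle. These ranges overlapped, and the log2 fold change of -0.23 ± 0.20 (adjusted p = 0.526) ranged from -0.38 without estrogen replicate 2 to -0.07 without estrogen replicate 3.

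Asns, the asparagine synthetase and a classical ATF4 target, had the smallest p of the members (ENSMUSG00000029752, chromosome 6, 7675169 to 7693254). It was at 97.3, 93.5 and 175 CPM in estrogen replicates 1, 2 and 3, against 69.8, 66.5 and 87.9 CPM in vehicle replicates 1, 2 and 3. Every estrogen library lay above every vehicle library, estrogen replicate 3 far above the rest. The log2 fold change was 0.71 ± 0.26 (SE), a 1.63-fold difference with a 95% interval of 1.06-fold to 2.51-fold (unadjusted p = 0.0316, adjusted p = 0.217, DESeq2 adjusted p = 0.0969). It was 0.35 without estrogen replicate 3, the library highest in summed adipocyte markers and lowest in summed fibroblast, macrophage and thermogenic adipocyte markers, though not in every single marker. The part of these cell types in the Asns difference was not tested.

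Chac1, which degrades glutathione and is induced by ATF4, had the largest fold among the 10 members but the fewest counts (ENSMUSG00000027313, chromosome 2, 119351229 to 119354381). It was at 12.3, 3.99 and 4.18 CPM in estrogen replicates 1 to 3, against 3.96, 1.77 and 3.60 CPM in vehicle replicates 1 to 3. The groups did not overlap, but estrogen replicate 2 and vehicle replicate 1 were nearly level, with 61 counts (exact 95% Poisson interval 46.7 to 78.4, counting error only) and 78 counts (61.7 to 97.3). Without TMM scaling they were at 3.80 and 4.08 CPM, and the groups overlapped. The log2 fold change of 1.14 ± 0.53 (95% interval -0.11 to 2.38, adjusted p = 0.269) was 0.38 without estrogen replicate 1. That library, with 237 Chac1 counts (208 to 269), is the one with high skeletal muscle markers. It was also highest in summed T cell markers (55.0 CPM, against 1.97 to 9.67 CPM in the other libraries) and B cell markers (150 CPM). Estrogen replicate 3, with B cell markers at 98.8 CPM, had Chac1 at 4.18 CPM. With estrogen replicate 1 left out, skeletal muscle markers were at 1.60 to 3.60 CPM in estrogen libraries and 2.28 to 56.4 CPM in vehicle libraries. Whether muscle or lymphocyte RNA adds to the Chac1 count was not tested.

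**Figure D2:**
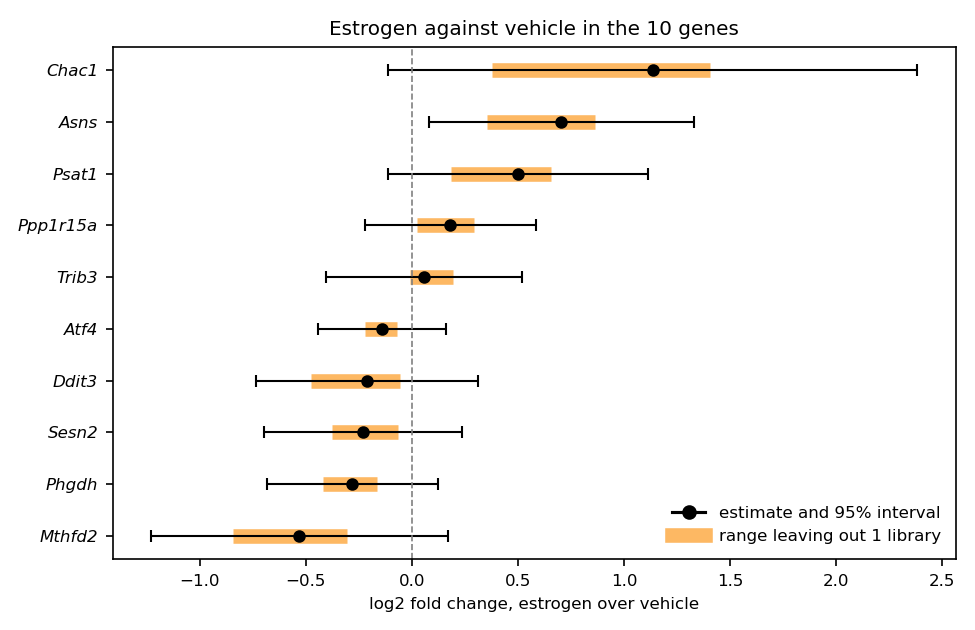
Log2 fold change, estrogen over vehicle, of the 10 genes from edgeR (points) with 95% intervals (lines) and the range of the estimate when each of the 6 libraries is left out in turn (orange bars). The interval of Asns, 0.08 to 1.33, is the only one that does not span 0, and leaving out 1 library lowers Chac1 to 0.38 and Asns to 0.35.

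The serine branch was uneven. Phgdh and Psat1 catalyse successive steps of serine synthesis from a glycolytic intermediate, and mitochondrial Mthfd2 uses serine-derived one-carbon units. Psat1 (chromosome 19, 15904678 to 15947337) was at 82.1, 76.6 and 138 CPM in estrogen replicates 1 to 3, against 77.1, 54.4 and 77.9 CPM in vehicle replicates 1 to 3. Estrogen replicate 3 stood out, while estrogen replicate 2 lay inside the vehicle range. Its log2 fold change was 0.50 ± 0.26 (adjusted p = 0.305), and 0.19 without estrogen replicate 3.

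Phgdh (chromosome 3, 98313170 to 98339990) was at 94.5, 80.1 and 114 CPM with estrogen, against 108, 107 and 135 CPM with vehicle. The lowest libraries were estrogen replicates 1 and 2, and estrogen replicate 3 lay among the vehicle values. The log2 fold change was -0.28 ± 0.17 (adjusted p = 0.374), ranging from -0.42 without estrogen replicate 3 to -0.16 without estrogen replicate 2. Mthfd2 (chromosome 6, 83305691 to 83325908) was at 7.67, 11.3 and 5.43 CPM with estrogen, against 14.4, 9.61 and 11.2 CPM with vehicle. Estrogen replicate 3, highest for Asns and Psat1, was lowest for Mthfd2. Its log2 fold change was -0.53 ± 0.30 (95% interval -1.23 to 0.17, adjusted p = 0.336), ranging from -0.84 without estrogen replicate 2 to -0.31 without estrogen replicate 3. The 5 proliferation markers, of the kind of cell in which Mthfd2 is known to be high, summed to 7.16 to 42.2 CPM in estrogen libraries and to 36.5 to 94.8 CPM in vehicle libraries. The sum was least in estrogen replicate 3, lowest for Mthfd2, and most in vehicle replicate 1, highest for Mthfd2. The order did not hold in between. Estrogen replicate 1 had a marker sum of 42.2 CPM with Mthfd2 at 7.67 CPM, and estrogen replicate 2 had 34.4 CPM with Mthfd2 at 11.3 CPM. The part of proliferating cells in the Mthfd2 level was not tested.

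Ratios between members, taken per kilobase of gene length within each library, were chosen after the values were seen. Asns over Phgdh was 0.936, 1.06 and 1.39 in estrogen replicates 1 to 3, against 0.586, 0.562 and 0.593 in vehicle replicates 1 to 3. Every estrogen library, at 1.13 ± 0.236 on average, lay above the vehicle libraries, which were close to each other at 0.581 ± 0.0162 (SD, n = 3). Psat1 over Phgdh was 0.508, 0.559 and 0.705 with estrogen, against 0.417, 0.296 and 0.338 with vehicle, again without overlap. Ddit3 over Atf4 averaged 0.160 ± 0.0350 with estrogen and 0.169 ± 0.0170 with vehicle, and overlapped. Exact two-sided permutation tests gave p = 0.1 for each of the ratios over Phgdh, the smallest p that 3 against 3 allows, and p = 0.7 for Ddit3 over Atf4 (0.15, 0.15 and 0.7 after Benjamini-Hochberg adjustment over the 3 ratios). The 3 ratios were picked from 45 pairs of members with the values in view. The adjustment does not cover that choice, so the p-values and the lack of overlap are descriptions only. A ratio of this kind compares how 2 genes differ between the groups, and does not say which of them changed.

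**Figure D3:**
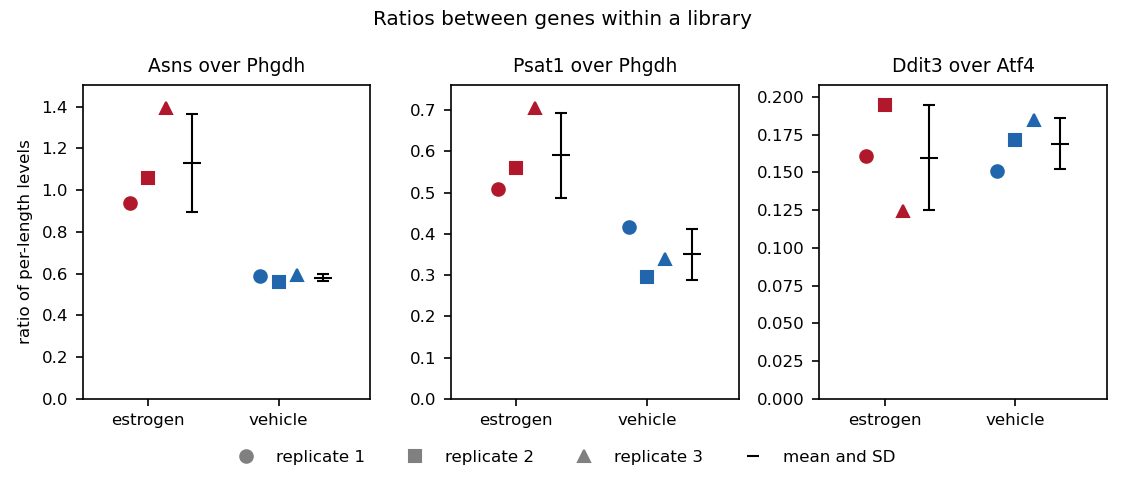
Ratios of per-length levels (RPKM over RPKM, linear axes from 0) for Asns over Phgdh, Psat1 over Phgdh and Ddit3 over Atf4, with 1 point per library, estrogen left of vehicle, and the mean and SD beside them. Asns over Phgdh averaged 1.13 with estrogen and 0.581 with vehicle without overlap, while Ddit3 over Atf4 averaged 0.160 and 0.169 and overlapped.

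Levels per length (RPKM, the CPM divided by the deposited gene length in kilobases) placed Atf4 highest, at 55.0 RPKM over the 6 libraries, followed by Phgdh at 42.8, Asns at 35.9 and Psat1 at 19.8 RPKM. Neighbours among these 4 overlapped in their ranges over libraries. Ddit3 (9.07 RPKM), Sesn2 (8.74) and Ppp1r15a (6.59) came next and overlapped each other, and all 3 lay below every Psat1 value. Trib3 (3.29) and Mthfd2 (2.85) lay below all of these in every library. Chac1 averaged 3.03 RPKM, but its range over libraries overlapped Trib3 and Mthfd2 and, through estrogen replicate 1, also reached past Ppp1r15a and into Ddit3 and Sesn2. In estrogen libraries Asns was at 44.6 ± 16.8 RPKM and Phgdh at 38.7 ± 6.85 RPKM, with overlap, whereas in vehicle libraries Asns was at 27.3 ± 4.23 RPKM and Phgdh at 47.0 ± 6.26 RPKM, without overlap (SD, n = 3).

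The members did not share one pattern over the libraries. The distance between genes was taken as the root mean square difference of log2 CPM after centring each gene on its own mean over the 6 libraries, as a description. It is small for any genes that vary little, such as Trib3 and Ppp1r15a (SD 0.14 and 0.23 log2 units), whether or not they share a pattern. Over the 45 pairs of members the median distance was 0.404 log2 units. The closest pairs were Trib3 and Ppp1r15a (0.153), Asns and Psat1 (0.162) and Ddit3 and Sesn2 (0.195), and the farthest was Chac1 and Mthfd2 (1.02). Asns and Psat1 were both highest in estrogen replicate 3, at 0.91 and 0.76 log2 units above their means, where Mthfd2, Sesn2 and Ddit3 were at -0.80, -0.49 and -0.44.

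**Figure D4:**
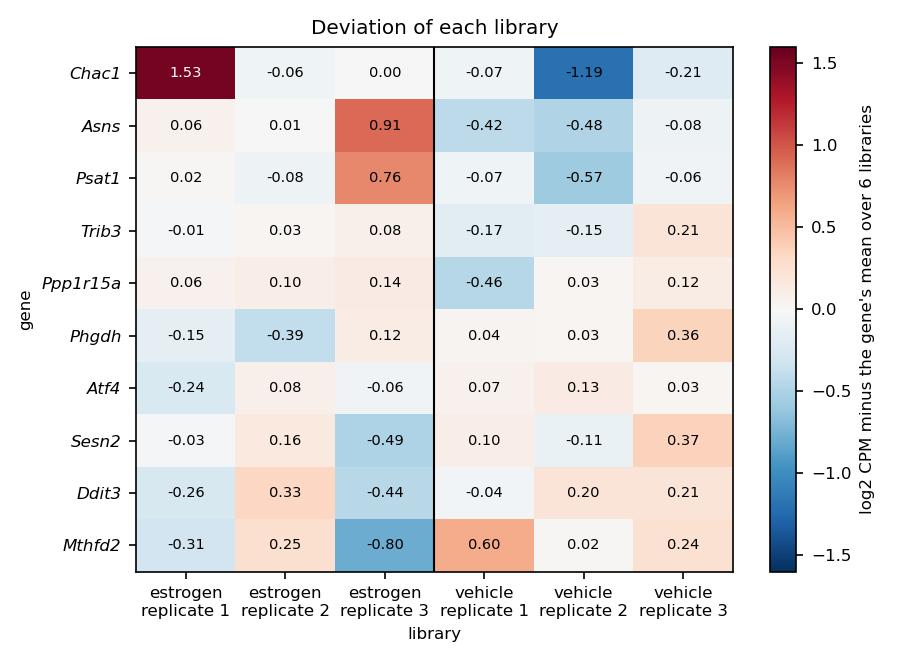
Deviation of each gene (rows) in each library (columns, estrogen left of vehicle) from the gene's mean over the 6 libraries, in log2 CPM, with red above and blue below the mean. Estrogen replicate 3 is high for Asns (0.91) and Psat1 (0.76) and low for Mthfd2 (-0.80), and Chac1 is high in estrogen replicate 1 (1.53).

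Chac1 varied most over the libraries, with an SD of 0.87 log2 units. Among the tested genes of most similar pattern over the 6 libraries were Phkg1 (distance 0.187), mt-Nd4l (0.189), Wipf3 (0.225) and Sept1 (0.283), against a median distance of 0.839 for all tested genes with a name that is not a predicted model. Phkg1, a phosphorylase kinase subunit known from muscle, was at 32.3, 9.43 and 8.43 CPM with estrogen, against 8.89, 4.55 and 11.02 CPM with vehicle. Sept1 was at 17.1, 4.32 and 7.73 CPM with estrogen, against 3.91, 2.33 and 4.64 CPM with vehicle. The mitochondrial transcript mt-Nd4l was at 111, 46.5 and 48.6 CPM with estrogen, against 45.6, 26.1 and 45.5 CPM with vehicle. Each of the named genes was highest in estrogen replicate 1.

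The wider pathway was read from 6 lists by role, 84 genes in all, and 0 of them passed the edgeR test, while 22 had an unadjusted p under 0.05, against 20.4% of all genes, and DESeq2 called 6, against 6.09%. Upstream, the eIF2alpha kinases, stress sensors and eIF2B subunits had a median log2 fold change of 0.16 over 17 genes, 14 of them positive, against 50.3% of all genes. At an unadjusted p under 0.05, 1 was higher and 1 lower, against 9.49% and 10.9% of all genes, and DESeq2 called 1 higher, against 2.75%. All estrogen libraries lay above all vehicle libraries for 4 genes and below them for 1, against 12.8% and 14.7% of all genes. Dele1, which relays mitochondrial stress to the kinase HRI, was at 37.7, 42.4 and 43.2 CPM with estrogen, against 30.4, 29.95 and 31.6 CPM with vehicle. Every estrogen library lay above the vehicle libraries, with a log2 fold change of 0.42 ± 0.10 (adjusted p = 0.207, DESeq2 adjusted p = 0.0420) and a range of 0.39 to 0.47 when single libraries were left out. Eif2ak3 encodes PERK, the kinase of the endoplasmic reticulum, and was at 22.3, 22.2 and 16.9 CPM with estrogen, against 28.1, 35.0 and 27.2 CPM with vehicle. It lay lower in all estrogen libraries, with a log2 fold change of -0.55 ± 0.16 (unadjusted p = 0.0112, adjusted p = 0.207). The kinase genes Eif2ak1 (HRI), Eif2ak2 (PKR) and Eif2ak4 (GCN2) had log2 fold changes of 0.23, -0.20 and -0.01, the eIF2B subunit gene Eif2b1 0.42, and the constitutive phosphatase subunit gene Ppp1r15b 0.15. Single libraries moved several of these: without estrogen replicate 3 Eif2b1 was at 0.27 and Ppp1r15b just below 0, without vehicle replicate 1 Eif2ak2 was at -0.03, and without vehicle replicate 3 Eif2ak4 was at 0.08. Gcn1l1, Impact and Eif2s1, also among the 14 positive genes, turned to -0.03, -0.10 and -0.03 without estrogen replicate 3. The number of positive genes in this list thus depended on that library.

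Transcription factors that cooperate with ATF4 or are induced beside it had a median log2 fold change of -0.32 over 8 genes, 6 of them negative. At an unadjusted p under 0.05, 4 were lower and 0 higher, against 10.9% lower and 9.49% higher of all genes, and DESeq2 called 2 lower, against 3.34%. For 5 of the 8 genes all estrogen libraries lay below all vehicle libraries, against 14.7% of all genes. Nfe2l2, the master regulator of antioxidant genes, was at 65.6, 70.8 and 69.0 CPM with estrogen, against 89.4, 104 and 88.8 CPM with vehicle (log2 fold change -0.46, adjusted p = 0.207, DESeq2 adjusted p = 0.0314). Nupr1, a stress-induced chromatin protein, was at 49.2, 52.8 and 44.2 CPM with estrogen, against 69.3, 68.8 and 62.2 CPM with vehicle (log2 fold change -0.45, adjusted p = 0.207, DESeq2 adjusted p = 0.0492). Neither gene overlapped between the groups. Atf3, an ATF4 target and stress-response repressor, was at 10.8, 15.8 and 4.74 CPM with estrogen, against 24.4, 22.3 and 19.2 CPM with vehicle, also without overlap, with a log2 fold change of -1.07 ± 0.38 (adjusted p = 0.212). Jdp2 had a log2 fold change of -0.57, while Atf5, which can act in the mitochondrial stress response, had 0.20 and Cebpb -0.18. Without estrogen replicate 2 Atf5 was at 0.05 and Cebpb at -0.47, and without vehicle replicate 1 Cebpb turned to 0.10. Fibroblast and macrophage markers, 14 genes of which 0 had a positive log2 fold change, were also lower in estrogen libraries, in the ranges given above. Their part in these transcription factor levels was not tested.

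Amino acid transporter genes had a median of -0.24 over 10 genes, with 7 negative, against 49.7% of all genes. At an unadjusted p under 0.05, 3 were lower and 0 higher, against 10.9% and 9.49% of all genes, and DESeq2 called 0. Slc7a5, the large neutral amino acid transporter, was at 4.77, 5.30 and 3.62 CPM with estrogen, against 12.2, 8.04 and 6.81 CPM with vehicle (log2 fold change -0.98, adjusted p = 0.207). Slc7a1, a cationic amino acid transporter, and Slc1a4, a neutral amino acid transporter, had -0.53 and -1.55. None of these genes, named for their small p, overlapped between the groups. In the list, 3 of 10 genes lay below in all estrogen libraries, against 14.7% of all genes. Slc1a5, a glutamine transporter, lay the other way at 0.46 (adjusted p = 0.298). Leaving out estrogen replicate 3 brought Slc1a5 to 0.21. Summed fibroblast and macrophage markers were lower in every estrogen library than in any vehicle library, although single markers such as Dcn and Cd163 overlapped. Slc1a4, like both marker sums, was lowest in estrogen replicate 3 and highest in vehicle replicate 2. The part of these cell types in the transporter levels was not tested. For Slc7a11, the cystine importer, vehicle replicate 1 decided the direction, as the log2 fold change of -1.75 became 0.14 without that library, which held 11.03 CPM against 0.0697 to 2.03 CPM in the other 5. It is also the library highest in neutrophil markers, whose part in the Slc7a11 count was not tested.

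Cytosolic tRNA synthetase genes, many of them known ATF4 targets, had log2 fold changes of -0.33 to 0.31 over 18 genes, with a median of 0.06 and 12 positive. Mars, the methionine enzyme, was at 64.3, 63.9 and 71.8 CPM with estrogen, against 56.8, 51.2 and 52.8 CPM with vehicle, a log2 fold change of 0.31 ± 0.11 (adjusted p = 0.209). It was the 1 gene of the list at an unadjusted p under 0.05, against 9.49% of all genes on the higher side. All estrogen libraries lay above all vehicle libraries for 1 gene of the list and below them for 2, against 12.8% and 14.7% of all genes. Iars, Cars and Tars had log2 fold changes of -0.33, -0.27 and -0.26, Iars at -0.14 without estrogen replicate 3 and Tars at -0.17 without vehicle replicate 1.

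**Figure D5:**
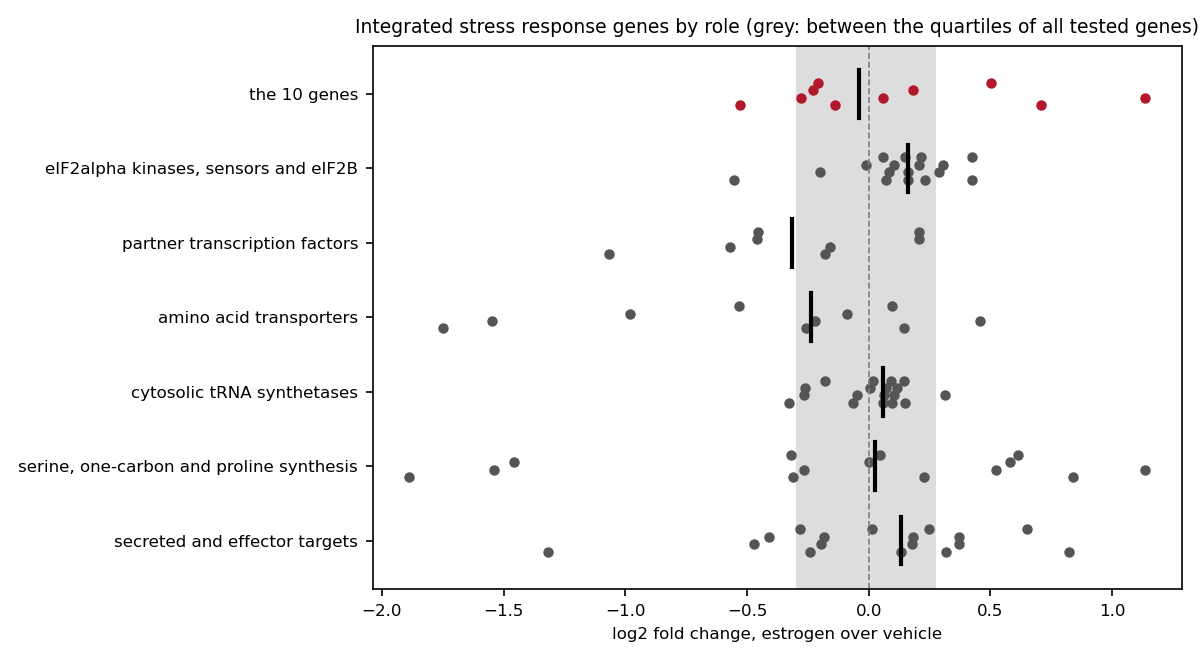
Log2 fold change, estrogen over vehicle, of each tested gene (points) in the 10 chosen genes and in 6 lists of integrated stress response genes by role, with the median of each list (black bars) and the span between the quartiles of all tested genes, -0.30 to 0.27, shaded grey. The tRNA synthetases stay close to 0, and the serine, one-carbon and proline list reaches from -1.89 for Pycr1 to 1.13 for Cbs.

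Genes of serine, one-carbon, proline and sulfur amino acid synthesis spread widest among the 6 lists, with a median of 0.02 over 14 genes. At an unadjusted p under 0.05, 5 were higher and 3 lower, against 9.49% and 10.9% of all genes, and DESeq2 called 1 higher and 2 lower, against 2.75% and 3.34%. The groups did not overlap for 5 genes above and 4 below, against 12.8% and 14.7% of all genes. Psph, which completes serine synthesis after Phgdh and Psat1, was at 33.2, 44.1 and 47.6 CPM with estrogen, against 30.1, 26.5 and 25.2 CPM with vehicle. The groups did not overlap, and its log2 fold change was 0.61 ± 0.16 (adjusted p = 0.207, DESeq2 adjusted p = 0.0430). Aldh18a1 and Pycr1, enzymes of proline synthesis, lay the other way. Aldh18a1 was at 13.1, 14.6 and 5.08 CPM with estrogen, against 29.9, 37.7 and 22.9 CPM with vehicle (log2 fold change -1.46, adjusted p = 0.207, DESeq2 adjusted p = 0.0176). Pycr1 was at 2.59, 4.58 and 0.836 CPM with estrogen, against 10.5, 14.3 and 4.99 CPM with vehicle (log2 fold change -1.89, adjusted p = 0.207, DESeq2 adjusted p = 0.0392). Both proline genes were lowest in estrogen replicate 3 and highest in vehicle replicate 2, as were the summed fibroblast and progenitor markers, at 1164 CPM in estrogen replicate 3 and 33324 CPM in vehicle replicate 2, and the part of those cells was not tested. Cth, which makes cysteine, had a log2 fold change of 0.52, and Shmt2, the mitochondrial serine hydroxymethyltransferase, -0.32 (adjusted p = 0.472), ranging from -0.60 without estrogen replicate 2 to -0.11 without estrogen replicate 3.

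Secreted and effector targets had a median of 0.13 over 17 genes, with 2 higher and 2 lower at an unadjusted p under 0.05, against 9.49% and 10.9% of all genes, and 0 called by DESeq2. Groups were without overlap for 1 gene above and 2 below, against 12.8% and 14.7% of all genes. Tnfrsf10b, a death receptor gene induced by CHOP, was at 11.04, 11.2 and 10.1 CPM with estrogen, against 5.69, 6.83 and 8.07 CPM with vehicle, without overlap (log2 fold change 0.65 ± 0.19, adjusted p = 0.207). Herpud1, which serves degradation of endoplasmic reticulum proteins, was at 53.3, 52.7 and 47.4 CPM with estrogen, against 66.4, 72.0 and 65.4 CPM with vehicle, also without overlap (log2 fold change -0.41 ± 0.11, adjusted p = 0.207). Gpt2 and Sesn1 had log2 fold changes of 0.82 and -0.47, Gpt2 at 0.35 without estrogen replicate 3 and Sesn1 at -0.30 without vehicle replicate 2. Ddit4, an mTORC1 inhibitor, was at -0.24, and ranged from -0.51 without estrogen replicate 1 to -0.09 without estrogen replicate 3. The stress hormone gene Gdf15 was at 1.19, 4.85 and 1.25 CPM with estrogen, against 4.17, 5.46 and 8.46 CPM with vehicle. Its groups overlapped (log2 fold change -1.32 ± 0.59, adjusted p = 0.259, and -2.30 without estrogen replicate 2). Fgf21, a hormone released by stressed and cold-exposed fat, had 14, 28 and 0 counts in estrogen replicates 1 to 3 and 9, 33 and 19 counts in vehicle replicates 1 to 3. Counts were few, the groups overlapped, and no difference passed the test (adjusted p = 0.924).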

How the data were processed

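The deposited table holds raw counts per gene as the authors made them, without normalization, beside symbols, coordinates and gene lengths in bases. HISAT2, featureCounts and the mm10 build are named per the submitters' processing notes. Their versions, strand setting and handling of multi-mapping reads are not given in the sources used. Groups and replicate numbers come from the sample titles, and columns were matched through the sample descriptions. For some libraries the number in the column name differs from that in the title, and the title number is used throughout, also for the replicate block. Counts were filtered with filterByExpr and scaled with TMM, and groups were compared with edgeR's quasi-likelihood F test, two-sided, with p-values adjusted by Benjamini-Hochberg over every tested gene (threshold 0.05). SEs come from the F statistic, and intervals are 95%. Log2 CPM used a prior count of 2. No pair of libraries in a group agreed within sampling noise (chi-square per degree of freedom 41.7 to 88.6). In 27 rows a symbol turned into a date was restored through the gene identifier. Software was R 4.3.3 with edgeR 4.0.16, DESeq2 1.42.0 and limma 3.58.1.

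All members were named whatever their values. From each list, up to 4 genes of smallest unadjusted p were named, plus 14 genes fixed by name (such as Atf3, Fgf21 and the kinases). Gcn1l1, Impact and Eif2s1 were named besides, for their change of sign when a library was left out. The members and lists were chosen with earlier results of these data known, so list counts are descriptions. Alternatives covered scaling, filtering, DESeq2, limma-voom, the replicate number as a block, and omitting each library in turn. A gene that the rule on similar patterns would name is not reported here.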

Additional observations from a re-analysis of the deposited data

How the results depend on the processing

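No member passed an adjusted p of 0.05 under any alternative tried (RLE scaling, no low-count filter, DESeq2, limma-voom, the replicate block, or leaving out any 1 library), and the median of the 10 members stayed between -0.08 and 0.05 when single libraries were left out. Of 110 recomputed member values, 108 kept their direction and side of the threshold. The exceptions were both for Trib3, at -0.0089 without vehicle replicate 1 and -0.00069 without vehicle replicate 2 (highest 0.19). Over all genes, DESeq2 called 854 where edgeR called 0 (386 higher, 468 lower), and leaving out single libraries gave 0 to 13 edgeR calls, the 13 without estrogen replicate 2. DESeq2 also called 1 of the kinase and sensor genes, 2 of the partner transcription factors and 3 of the serine, one-carbon and proline genes. The cause was not tested. With the replicate number as a block, 0 genes passed over all genes and 0 members, and Asns was at 0.65 (adjusted p = 0.120). The numbers do not pair the samples by the labels, and deviations of same-numbered libraries correlated over genes at -0.12, 0.16 and 0.29 for numbers 1, 2 and 3. Estrogen and vehicle libraries of different number correlated at -0.36 to 0.17. With 3 libraries a group, low counts add to the error of Fgf21, Slc7a11, Gdf15 and Chac1.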

Other observations

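The mitochondrial unfolded protein response, whose chaperone and protease genes respond to faults in mitochondrial protein folding beside the ATF4 targets, was looked at after the data were seen. Its 10 genes were Hspd1, Hspe1, Hspa9, Dnaja3, Lonp1, Clpp, Clpx, Yme1l1, Afg3l2 and Spg7, and counts over them are descriptions. The log2 fold changes ran from 0.06 to 0.57 with a median of 0.42. All 10 genes were positive, against 50.3% of all genes, and 7 had an unadjusted p under 0.05, against 9.49% of all genes on the higher side. None passed the edgeR adjustment (smallest adjusted p = 0.207) or DESeq2's (smallest adjusted p = 0.0624). Lonp1, a matrix protease known as an ATF4 target, averaged 198 ± 25.5 CPM in estrogen libraries and 146 ± 7.03 CPM in vehicle libraries (SD, n = 3), with no overlap between the groups. Clpp, the catalytic subunit of another matrix protease, averaged 65.1 ± 13.4 CPM in estrogen libraries and 43.9 ± 6.52 CPM in vehicle libraries, also without overlap. Of all tested genes, 12.8% lay higher in estrogen without overlap. Hspa9, the matrix HSP70, averaged 887 ± 122 CPM in estrogen libraries and 624 ± 111 CPM in vehicle libraries, and its groups overlapped. Summed adipocyte markers were higher in every estrogen library, at 16868 to 25872 CPM against 12020 to 15862 CPM in vehicle libraries, with 6 of the 8 genes higher. Summed fibroblast and macrophage markers were lower in every estrogen library. The part of these cell types in the levels of the mitochondrial genes was not tested.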
